A study of Saccharomyces cerevisiae with 10 samples.

Results

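The genes described here are 32 genes of sulfate assimilation and sulfur amino acid metabolism in baker's yeast, chosen by name: the genes of sulfate uptake and reduction, of methionine, cysteine and S-adenosylmethionine synthesis, and their permeases and regulators. All 32 were on the array, with 36 probe sets that each report a single gene, and all 32 passed the filter on dim genes. They belong to 5365 genes tested, of 5656 genes that had such a probe set. A commercial strain of Saccharomyces cerevisiae was grown in fed-batch culture, pressed, spread on a metal tray and dried in warm blown air. Labelled copies of the poly(A)+ RNA were read on the Affymetrix S98 array, a 1-colour array of short probes, after 1, 2, 4 and 8 h of drying and before drying (0 h). Each time had 2 arrays, described by the submitters as independent duplicates, so there were 8 arrays of dried cells and 2 arrays at 0 h. The labels name no genotype, ploidy, supplement or undried time control, so drying, warmth and elapsed time cannot be told apart, and neither can fewer cells with a transcript and less transcript per cell.

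Yeast takes up sulfate through dedicated permeases, activates it with ATP and reduces it to sulfide. Sulfide is joined to an activated homoserine to make homocysteine, which is methylated to methionine or passed through cystathionine to cysteine, and methionine is turned into S-adenosylmethionine, the methyl donor of the cell. When sulfur amino acids run short, the transcriptional activator Met4, brought to promoters by Cbf1, Met31 and Met32, switches the pathway on, and the ubiquitin ligase that contains Met30 restrains it.

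Levels are given as a gene's intensity divided by the median of its array. Changes are log2 differences of group means with their standard errors (SE), from a limma fit over all 10 arrays, and a gene passed where its p, adjusted by the Benjamini-Hochberg method over the 5365 genes, was below 0.05. A level says how bright a probe set was and is not comparable between genes. The 4 comparisons with 0 h share the same pair of 0 h arrays. The 10 array medians lay between 23.6 and 115 intensity units, and the dimmest arrays were replicate 1 at 8 h and replicate 1 at 2 h. The ratio of the 3' to the 5' actin probe set, a measure of RNA length, lay between 2.62 and 6.64. Its 2 highest values were on those same dimmest arrays. The next highest, 5.38, was on replicate 1 at 0 h, which was also the next dimmest array, against 2.62 on replicate 2 at 0 h. At every time the ratio was higher on replicate 1 than on replicate 2, and its part in the changes was not tested. The lowest correlation between the pair of arrays of a time, over all genes, was r = 0.942 at 2 h. Between any 2 of the 10 arrays, at most 0.615% of the values were identical. Of the 32 genes, 25 were brighter than the array median on all 10 arrays and 3 were dimmer on all 10. By their mean over the arrays, 3767 of the 5365 genes tested lay above the array median. The share of all genes on 1 side of it on all 10 arrays was not counted. As a check of the material, 6 of 9 genes of haploid and mating cells and 7 of 8 sporulation genes lay below the array median on every array. The summed level of the mating list was 6.51 to 10.1 at 0 h, 9.04 to 13.4 at 1 h and 8.92 to 19.5 at 2 h. It was 7.41 to 7.58 at 4 h and 7.36 to 8.98 at 8 h, and its part in the sulfur gene values was not tested. The summed level of the sporulation list stayed between 2.82 and 4.94 on the 10 arrays.

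The sulfur genes sat mostly a little below their 0 h level during drying, and a single gene, MUP3, which encodes a low-affinity methionine permease, passed the test. After 2 h, 30 of 32 genes had a lower mean than at 0 h (93.8%, against 54.5% of all genes tested), and the median change was -0.50, against -0.05 for all genes. At 1 h the change was negative for 26 genes (46.8% of all genes), with a median of -0.29, against 0.04 for all genes. At 4 h it was negative for 28 (47.8% of all genes), with a median of -0.24, against 0.02. By 8 h the median was -0.13, against 0.01, and 24 genes had a negative change (48.6% of all genes). Averaged over the 4 dried times the change was negative for 28 genes, against 50.4% of all genes. The direction of the 4 h median depended on scaling: with no scaling of the arrays it was 0.012, while that of all genes was 0.27.

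**Figure D1:**
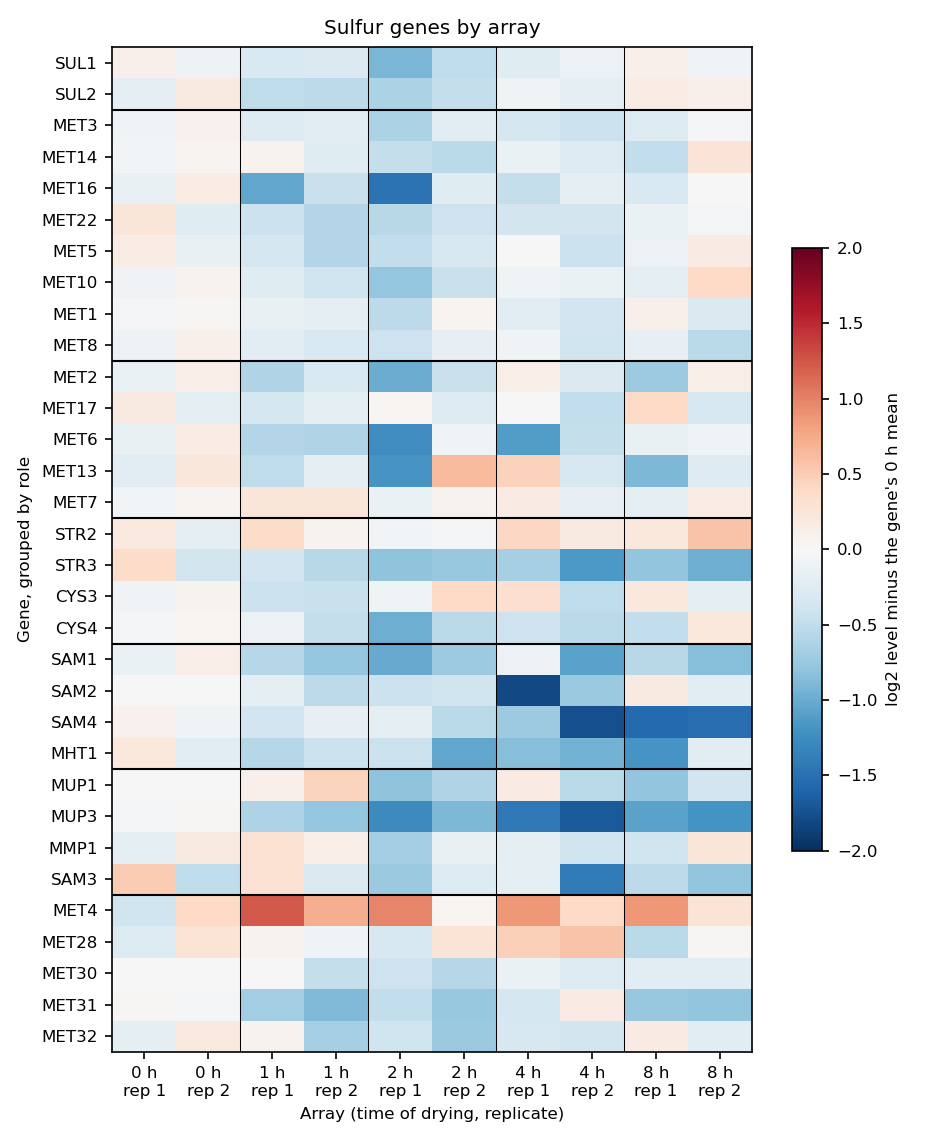
Log2 level of each of the 32 sulfur genes on each of the 10 arrays, minus the mean of that gene's 2 arrays at 0 h. Columns are arrays from 0 to 8 h, rows are genes grouped by role, and blue stands for a level below 0 h. Most cells in the 1 h and 2 h columns are pale blue, MUP3 is blue in all 8 dried columns, and MET4 is red in most of them.

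Per array, the median of the 32 genes, in log2 units relative to the 0 h mean, was -0.28 and -0.35 on the 1 h arrays, -0.54 and -0.41 on the 2 h arrays, -0.16 and -0.39 on the 4 h arrays, and -0.24 and -0.14 on the 8 h arrays. On all 8 dried arrays the median was thus below 0 h, and the lowest value was on the dimmer array at 2 h. With both of the dimmest arrays left out, the 2 h median was -0.41. The standard deviation (SD) between replicates of this per-array median was 0.11.

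Both dried arrays were below both 0 h arrays for 22 of 32 genes at 1 h, where the share of all genes was 22.8%. At 2 h this held for 21 genes (24.4% of all genes), at 4 h for 17 (18.8%) and at 8 h for 11 (16.9%). The opposite separation, both dried arrays above both 0 h arrays, was found for 3, 0, 2 and 1 genes at 1, 2, 4 and 8 h, against 29.4%, 18.6%, 25.5% and 19.3% of all genes. These counts describe the arrays and carry no p-value, because the genes were chosen as a set with earlier results in view.

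Of single genes, limma called 0 of 32 at 1 h (2.61% of all genes passed in either direction), and at an unadjusted p below 0.05 it counted 3 lower and 1 higher, against 3.56% and 10.3% of all genes. It called 1 lower and 0 higher at 2 h, where 1.51% of all genes passed, 0.69% lower and 0.82% higher. At 4 h it again called 1 lower and 0 higher, where 1.45% of all genes passed, 0.373% lower and 1.08% higher. Its count at an unadjusted p below 0.05 was then 4 lower and 0 higher, against 3.99% and 6.73% of all genes. At 8 h it called 0 (0.951% of all genes), with 3 lower and 0 higher at an unadjusted p below 0.05 (4.59% and 4.68% of all genes). Averaged over the 4 dried times, 1 gene was lower and 0 were higher, where 2.11% of all genes passed, 0.746% lower and 1.36% higher. The unadjusted count for that average was 3 lower and 1 higher, against 4.16% and 7.68% of all genes. Each of these calls was MUP3, and MUP3 was also the 1 sulfur gene that passed the F test over the 4 dried times (3.28% of all genes passed it). At 2 h, 10 of 32 genes were lower and 0 were higher at an unadjusted p below 0.05, against 7.12% and 5.98% of all genes.

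SUL1 and SUL2 encode the high-affinity sulfate permeases, the entry point of the pathway. SUL1 had levels of 4.06 and 3.49 at 0 h, 3.06 and 3.09 at 1 h, 2.01 and 2.64 at 2 h, 3.18 and 3.48 at 4 h, and 4.03 and 3.57 at 8 h. The pairs at 1, 2 and 4 h lay below the 0 h pair, most clearly at 2 h, and the 8 h pair fell within the 0 h range. SUL2 had 4.48 and 5.71 at 0 h, 3.55 and 3.51 at 1 h, 3.25 and 3.65 at 2 h, 4.74 and 4.46 at 4 h, and 5.61 and 5.41 at 8 h. Its 1 h and 2 h arrays were below both 0 h arrays, and its 4 h and 8 h arrays overlapped them. The largest differences from 0 h were -0.71 ± 0.24 for SUL1 at 2 h (limma, adjusted p = 0.184) and -0.55 ± 0.23 for SUL2 at 2 h, neither of which passed. Between 8 h and 1 h, SUL2 differed by 0.64 ± 0.23 (adjusted p = 0.146), with both 8 h arrays above both 1 h arrays. That comparison called 0 of 32 sulfur genes (3.45% of all genes passed), with 1 higher and 1 lower at an unadjusted p below 0.05 (5.87% and 12.3% of all genes).

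**Figure D2:**
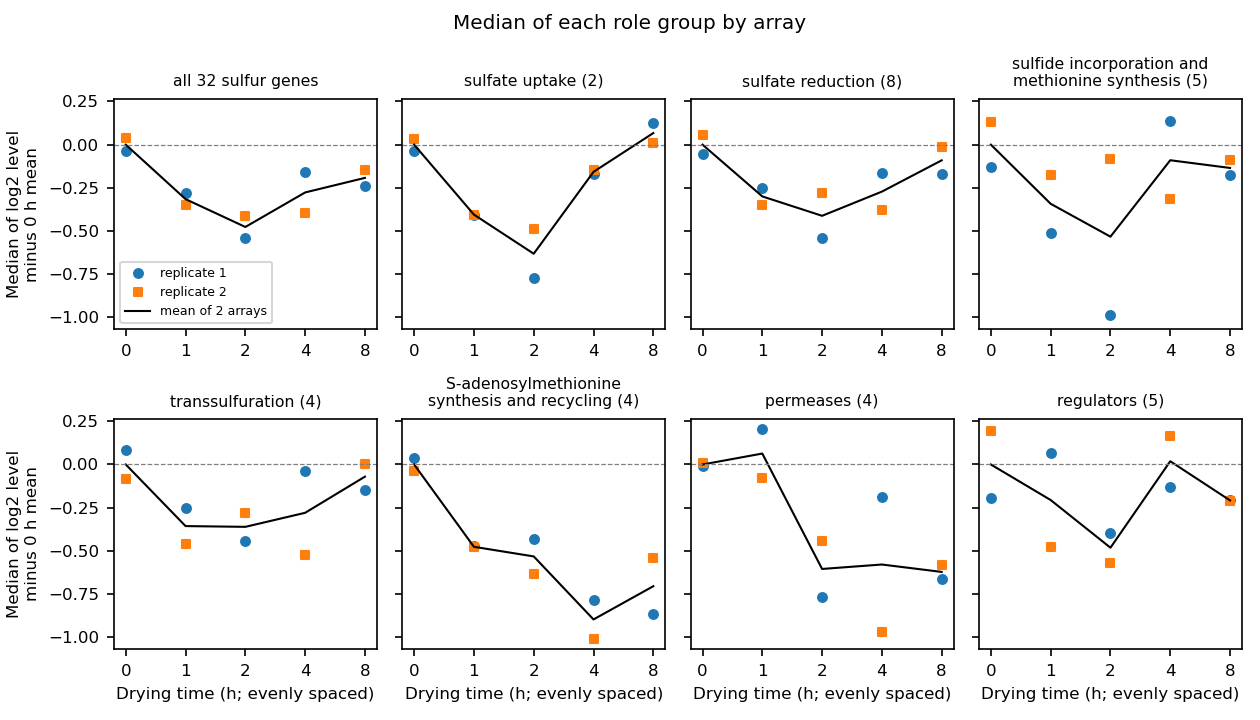
Median, over the genes of each role, of the log2 level minus the 0 h mean, by array (points, replicates 1 and 2) and averaged over the pair (line), for all 32 sulfur genes and 7 roles with gene numbers in brackets. Times run from 0 to 8 h and are evenly spaced on the axis. The 2 uptake genes are lowest at 2 h and have a median change of 0.07 at 8 h. The genes of S-adenosylmethionine synthesis and recycling, which include the dim SAM4 and MHT1, are lowest at 4 h.

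Sulfate reduction takes 8 genes. All 8 had a negative change at 1, 2 and 4 h, with medians of -0.29, -0.46 and -0.27, and the median at 8 h was -0.11. None of the 8 passed in any comparison, and all 4 medians lie within 0.5 log2 units of 0 h. MET3 encodes ATP sulfurylase, which activates sulfate. Its levels were 4.83 and 5.46 at 0 h, 4.28 and 4.42 at 1 h, 3.32 and 4.41 at 2 h, 4.00 and 3.81 at 4 h, and 4.24 and 5.05 at 8 h. All 3 pairs from 1 to 4 h were below the 0 h pair, but the changes of -0.24, -0.42 and -0.39 had an SE of 0.24 each. MET14 encodes the kinase that phosphorylates the activated sulfate. It had 4.69 and 5.01 at 0 h, 5.10 and 4.08 at 1 h, 3.49 and 3.32 at 2 h, 4.44 and 4.03 at 4 h, and 3.45 and 5.78 at 8 h. Only at 2 and 4 h did both of its arrays lie below the 0 h pair, and the 8 h arrays were the farthest apart.

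MET16 encodes the reductase that releases sulfite from the activated form. Its levels were 1.25 and 1.55 at 0 h, 0.677 and 1.02 at 1 h, 0.498 and 1.18 at 2 h, 0.999 and 1.23 at 4 h, and 1.12 and 1.39 at 8 h. The lowest single array was replicate 1 at 2 h, where the pair also differed most, and the 2 h change was -0.86 ± 0.39, which did not pass. MET22 removes the nucleotide left over from that step, and MET5 and MET10 encode the subunits of sulfite reductase, which makes sulfide. Their 1 h changes were -0.51, -0.48 and -0.32, and their 8 h changes were -0.07, 0.02 and 0.11. MET1 and MET8, which make the siroheme cofactor of sulfite reductase, were at -0.20 and -0.28 on average over the dried times and did not pass.

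Sulfide incorporation and methionine synthesis include MET2, which acetylates homoserine, MET17, which joins sulfide to the acetylated form, MET6, the methionine synthase, MET13, which supplies the methyl group on folate, and MET7, which adds glutamate to folates. MET17 levels were 63.1 and 49.6 at 0 h, 43.8 and 49.6 at 1 h, 57.7 and 46.2 at 2 h, 56.3 and 39.7 at 4 h, and 73.4 and 44.9 at 8 h. Dried and 0 h arrays overlapped at 2, 4 and 8 h, and its changes ran between -0.26 and 0.04. MET6 had 22.9 and 28.1 at 0 h, 17.0 and 16.8 at 1 h, 10.7 and 24.0 at 2 h, 11.7 and 18.3 at 4 h, and 22.9 and 23.8 at 8 h. At 1 and 4 h both arrays were below 0 h, while at 2 h and 8 h they overlapped it. Its change was -0.79 ± 0.35 at 4 h and did not pass (adjusted p = 0.412). MET2 had a change of -0.71 at 2 h, MET7 had changes between -0.03 and 0.24, and the MET13 pair at 2 h was far apart, at 1.76 and 6.14, against 3.40 and 4.64 at 0 h.

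**Figure D3:**
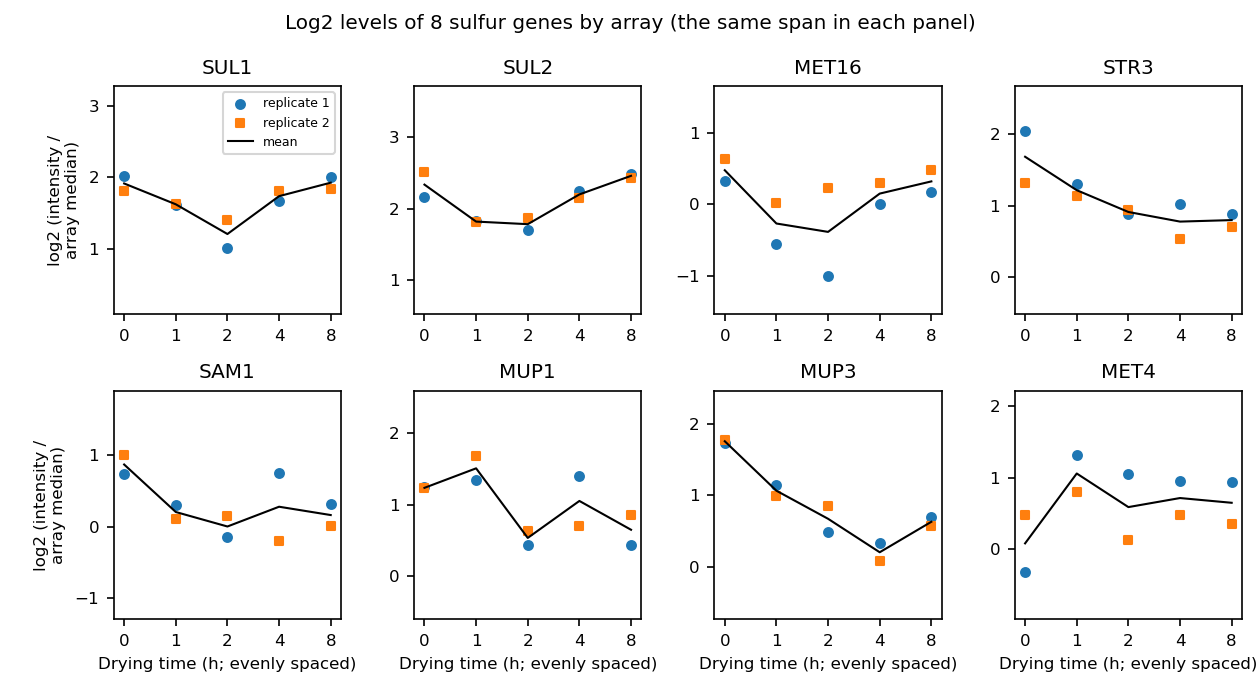
Log2 level of 8 sulfur genes by drying time from 0 to 8 h, with replicates 1 and 2 as points and their mean as a line. Each panel spans the same number of log2 units around its own centre. The MUP3 mean is lower at each time up to 4 h, the SUL1 and SUL2 means are lowest at 2 h, and MET4 sits lowest at 0 h.

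Transsulfuration interconverts homocysteine and cysteine through cystathionine. STR3, encoding cystathionine beta-lyase of the route towards methionine, had levels of 4.14 and 2.50 at 0 h, 2.46 and 2.20 at 1 h, 1.85 and 1.91 at 2 h, 2.02 and 1.45 at 4 h, and 1.85 and 1.63 at 8 h. All 8 dried arrays were below both 0 h arrays, but the margin to the lower 0 h array was narrow and the 0 h pair was spread widely. Averaged over the dried times the change was -0.76 ± 0.23 (95% interval -1.24 to -0.28; limma, adjusted p = 0.131), and it was -1.12 without replicate 2 at 0 h and -0.40 without replicate 1 at 0 h. STR2, which encodes cystathionine gamma-synthase, acting just before STR3, had changes of 0.22, -0.04, 0.30 and 0.39 at 1, 2, 4 and 8 h, each with an SE of 0.25. On the route towards cysteine, CYS4 encodes cystathionine beta-synthase and CYS3 encodes cystathionine gamma-lyase. CYS3 levels were 15.9 and 17.6 at 0 h, 12.4 and 12.2 at 1 h, 15.8 and 22.1 at 2 h, 21.2 and 11.7 at 4 h, and 19.3 and 14.6 at 8 h, so that the 1 h pair alone stood apart from 0 h. CYS4 had its lowest mean at 2 h, at -0.76 ± 0.28 (adjusted p = 0.237), and its levels there were 5.81 and 7.91, against 11.2 and 11.7 at 0 h.

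S-adenosylmethionine is made by the synthetases encoded by SAM1 and SAM2, while SAM4 and MHT1 encode homocysteine methyltransferases that return S-adenosylmethionine or S-methylmethionine to methionine. The median change of these 4 genes was -0.43, -0.57, -1.07 and -0.70 at 1, 2, 4 and 8 h, and none of them passed. SAM1 had 1.66 and 2.01 at 0 h, 1.24 and 1.07 at 1 h, 0.906 and 1.11 at 2 h, 1.69 and 0.873 at 4 h, and 1.24 and 1.01 at 8 h. Of its 8 dried arrays, 7 were below both 0 h arrays, and the average change was -0.71 ± 0.26 (adjusted p = 0.252). SAM2 had 18.5 and 18.7 at 0 h, 16.1 and 12.9 at 1 h, 13.8 and 14.0 at 2 h, 5.32 and 11.1 at 4 h, and 21.0 and 15.8 at 8 h. The 4 h pair was lowest, and replicate 1 was lower than replicate 2. The SAM2 change at 4 h was -1.27 ± 0.32 (95% interval -1.95 to -0.59; limma, adjusted p = 0.0722). It was -1.80, and passed (adjusted p = 0.0188), without replicate 2 at 4 h, and -0.74 without replicate 1 at 4 h. With 1 array of a time left out, the fit assumes that the lone array varies like those of the other times, here and wherever an array is left out. Leaving out either 8 h array also let it pass, with adjusted p = 0.0469 without replicate 1 and 0.0464 without replicate 2.

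SAM1 and SAM2 are close copies, and a further probe set reports both. That shared set read 69.1 and 50.7 at 4 h, against 88.1 and 63.1 at 0 h, and its changes were -0.25, 0.00, -0.33 and -0.11 at 1, 2, 4 and 8 h. The 4 h difference on the shared set was thus smaller than on the SAM2 set, and cross-hybridisation between the copies was not tested. SAM4 was dim, with levels of 0.371 and 0.329 at 0 h, 0.212 and 0.103 at 4 h, and 0.119 and 0.122 at 8 h. Its 8 h levels and its lower 4 h level were near the floor of 0.1. Its 8 h change of -1.54 ± 0.75 did not pass, although all 8 of its dried arrays lay below both 0 h arrays. A probe set that reports SAM4 together with YMR321C had a change of 0.14 at 4 h and -0.08 at 8 h, against -1.24 at 4 h on the SAM4 set. MHT1 ran from 0.373 to 0.724 on the dried arrays and had 0.974 and 0.727 at 0 h, so it too was lower on all 8, by a narrow margin.

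**Figure D4:**
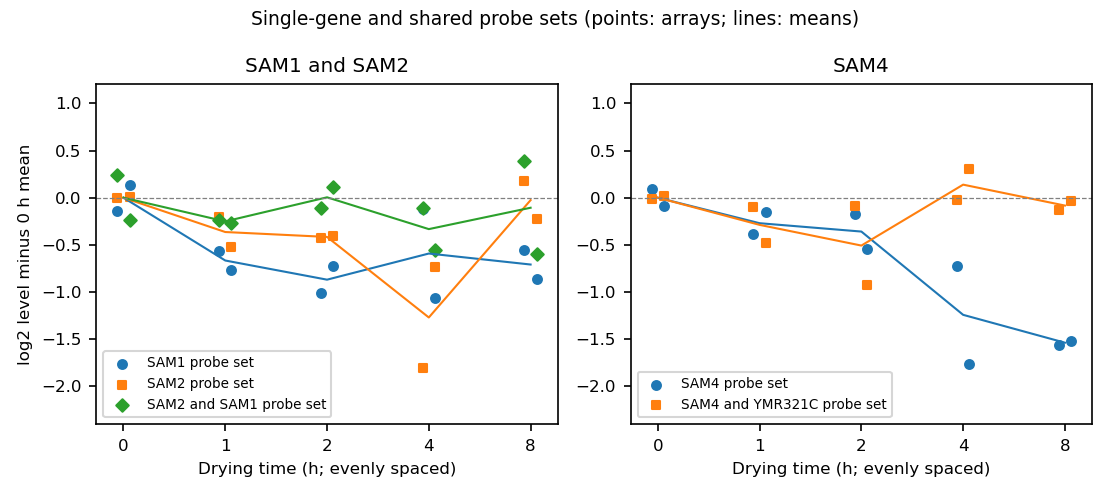
Log2 level minus the 0 h mean of the single-gene probe sets of SAM1, SAM2 and SAM4 and of the probe sets that report SAM2 with SAM1 or SAM4 with YMR321C, by drying time from 0 to 8 h. Points are arrays and lines are means of the pair. At 4 h the SAM2 set lies farthest below 0 h. The set shared by SAM2 and SAM1 lies 0.33 below 0 h, and that shared by SAM4 and YMR321C lies 0.14 above it.

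Permeases for sulfur compounds gave the one gene that passed. MUP3 had levels of 3.34 and 3.43 at 0 h, 2.21 and 1.98 at 1 h, 1.40 and 1.81 at 2 h, 1.25 and 1.06 at 4 h, and 1.61 and 1.49 at 8 h. The highest of its 8 dried arrays, 2.21, lay well below the lower 0 h array, and the 4 h pair was lowest. MUP3 fell at 4 h by 1.56 on the log2 scale (SE 0.25, 95% interval -2.10 to -1.01; limma, adjusted p = 0.00504), to a level 0.34 of that at 0 h, and stood 32nd from the lowest change among the 5365 genes. It also fell at 2 h by 1.09 (SE 0.25, 95% interval -1.63 to -0.55; adjusted p = 0.0476) and on average over the dried times by 1.12 (SE 0.20, 95% interval -1.54 to -0.69; adjusted p = 0.00682). The values at 1 h, -0.69 ± 0.25 (adjusted p = 0.20), and at 8 h, -1.13 ± 0.25 (adjusted p = 0.0509), did not pass. The F test over the 4 dried times gave an adjusted p of 0.0171, and 8 h and 1 h differed by -0.44 ± 0.25 (adjusted p = 0.404).

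The 4 h call on MUP3 was lost without replicate 1 at 0 h (adjusted p = 0.0701), replicate 2 at 0 h (0.0671) or replicate 2 at 4 h (0.0647), and held without any of the other 7 arrays. The average over the dried times lost its call without either 0 h array (adjusted p = 0.146 without replicate 1 and 0.143 without replicate 2). The 2 h call held in 3 of 10 such fits, and without the dimmer replicate 1 at 2 h the change was -0.90 (adjusted p = 0.181). With no scaling of the arrays it was -1.28 on average over the dried times and did not pass. The sign was negative in all 20 alternative fits at each of the 4 times.

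MUP1, the high-affinity methionine permease, lay on both sides of its 0 h level. It had 2.36 and 2.34 at 0 h, 2.53 and 3.2 at 1 h, 1.35 and 1.55 at 2 h, 2.64 and 1.63 at 4 h, and 1.36 and 1.81 at 8 h. Both 1 h arrays were above, and both 2 h and both 8 h arrays below, the 0 h pair. Its changes were 0.27, -0.70, -0.18 and -0.59, each with an SE of 0.29, and it differed by -0.86 ± 0.29 between 8 h and 1 h (limma, adjusted p = 0.116). MMP1 takes up S-methylmethionine and SAM3 takes up S-adenosylmethionine. MMP1 changes lay between -0.42 and 0.22. SAM3 has 5 single-gene probe sets, and on the brightest of them its 4 h change was -0.80 ± 0.40. The other sets gave -0.14 to -1.86 at 4 h, where the set with the lowest value was at the floor on 1 array, and -1.39 to 0.14 at 8 h. In the R64 RefSeq gene table MHT1 and MMP1 are neighbours, as are SAM3 and SAM4, each pair coding for a permease and the enzyme that uses its substrate. MHT1 differed by -0.71 ± 0.35 on average over the dried times and MMP1 by -0.14 ± 0.22, and neither passed.

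**Figure D5:**
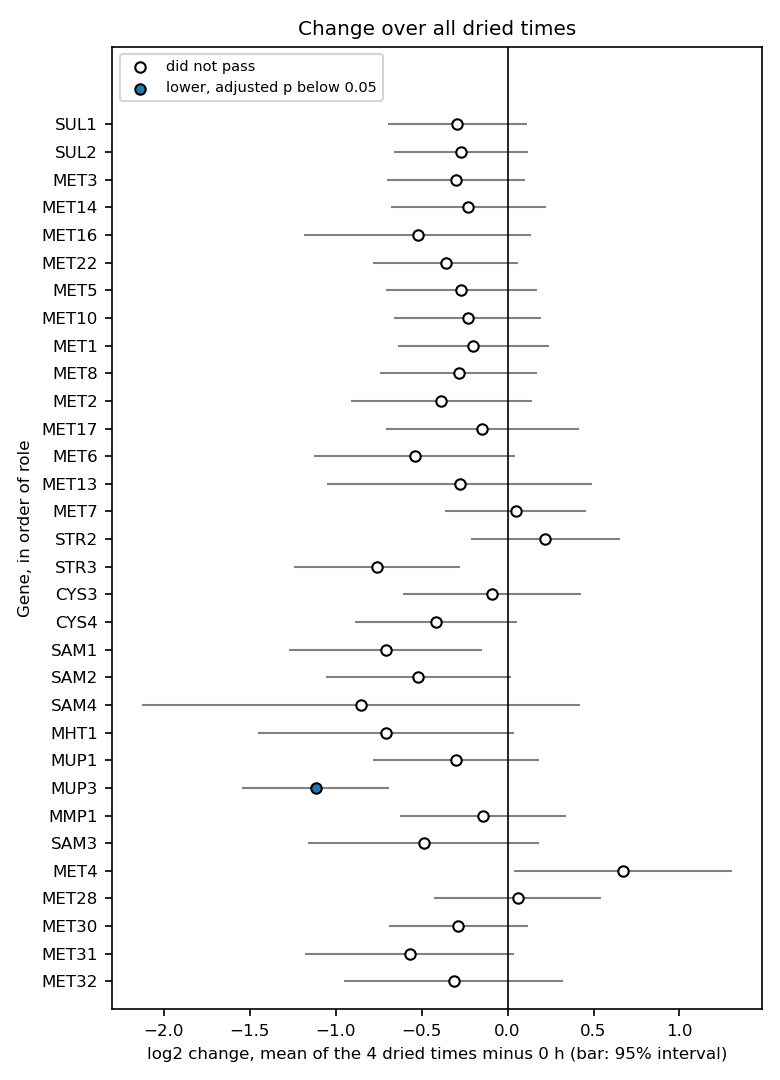
Change of each of the 32 sulfur genes between the mean of the 4 dried times and 0 h, in log2 units, with its 95% interval. Of the 32 points, 28 lie below 0, and the filled point, MUP3 at -1.12, is the single gene that passed.

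None of the 5 regulators of the pathway passed, and their changes had both signs. MET4 encodes the activator itself. Its levels were 0.801 and 1.39 at 0 h, 2.48 and 1.75 at 1 h, 2.07 and 1.09 at 2 h, 1.93 and 1.39 at 4 h, and 1.92 and 1.28 at 8 h. Both 1 h arrays were above both 0 h arrays, and so were both 4 h arrays, the lower of them barely, while the 2 h and 8 h pairs overlapped the 0 h range. The change was 0.98 ± 0.38 at 1 h (limma, adjusted p = 0.231), and it was 0.58 without replicate 1 at 0 h and 1.38 without replicate 2 at 0 h. The average over the dried times was 0.67 ± 0.30 (95% interval 0.04 to 1.31; adjusted p = 0.386).

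MET28 encodes a leucine-zipper partner of Met4. It had 4.39 and 6.39 at 0 h, 5.53 and 5.06 at 1 h, 4.23 and 6.39 at 2 h, 7.37 and 7.84 at 4 h, and 3.63 and 5.40 at 8 h, so that the 4 h pair alone stood above the 0 h pair. Its 4 h change of 0.52 ± 0.29 did not pass. MET30, the F-box protein of the ligase that restrains Met4, had 4.65 and 4.63 at 0 h, 4.61 and 3.34 at 1 h, 3.50 and 3.13 at 2 h, 4.24 and 3.82 at 4 h, and 4.03 and 4.01 at 8 h. All 8 of its dried arrays were below both 0 h arrays, the closest pair being 4.61 and 4.63, and its changes lay between -0.49 and -0.21. MET31 and MET32 encode the zinc-finger proteins that bring Met4 to DNA. MET32 had 0.756 and 0.990 at 0 h, 0.910 and 0.548 at 1 h, 0.659 and 0.515 at 2 h, 0.690 and 0.670 at 4 h, and 0.966 and 0.736 at 8 h, and its pairs lay below 0 h at 2 and 4 h. MET31 was at -0.78 ± 0.36 at both 1 h and 8 h, and did not pass at either.

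Across the 32 genes the times had no single order. The lowest of the 5 time means fell at 2 h for 15 genes, where 26.7% of all genes had theirs. It fell at 4 h for 7 (15.6% of all genes) and at 1 h for 5 (17.7%). At 8 h it did so for 4 (19.6%) and at 0 h for 1 (20.4%). The highest mean was at 0 h for 18 genes, against 19.3% of all genes. The genes lower on all 8 dried arrays than on both 0 h arrays were STR3, SAM4, MHT1, MUP3 and MET30, and 0 genes were higher on all 8. The shares of all genes were 3.88% and 4.49%. The precision limits what a gene that did not pass can show: the pooled SD between replicates had a median of 0.29 log2 units, and the 95% interval of the change at 2 h lay within 1 log2 unit of 0 for 10 of 32 genes. At 8 h that held for 22 of 32.

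Neighbouring steps of metabolism were covered by 39 further genes, of which 38 were tested (BDS1, a sulfatase gene, was too dim). Limma called 0 of 38 genes in each of the 6 comparisons. Of all genes, 2.61%, 1.51%, 1.45% and 0.951% passed at 1, 2, 4 and 8 h. The shares were 2.11% averaged over the dried times and 3.45% for 8 h against 1 h. At an unadjusted p below 0.05 limma counted 2 lower and 4 higher at 1 h (3.56% and 10.3% of all genes). At 2 h it counted 6 lower and 1 higher (7.12% and 5.98%). It counted 2 lower and 0 higher at 4 h (3.99% and 6.73%), and 2 lower and 1 higher at 8 h (4.59% and 4.68%). Averaged over the dried times it counted 3 lower and 1 higher (4.16% and 7.68%), and between 8 h and 1 h 7 lower and 3 higher (12.3% and 5.87%). Their median changes were 0.13, -0.22, 0.01 and 0.00 at 1, 2, 4 and 8 h, against 0.04, -0.05, 0.02 and 0.01 for all genes.

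Among these genes, SOA1 was the 1 of 38 that passed the F test over the 4 dried times (adjusted p = 0.0305; 3.28% of all genes passed it). SOA1 encodes a transporter for sulfonates and other sulfur anions, an alternative supply to sulfate. It had levels of 2.06 and 2.31 at 0 h, 3.77 and 3.18 at 1 h, 1.44 and 1.10 at 2 h, 1.41 and 1.75 at 4 h, and 1.91 and 1.62 at 8 h. Both 1 h arrays were above the 0 h pair, and all 6 later arrays were below it. No single time passed: the change was 0.66 ± 0.26 at 1 h and -0.80 ± 0.26 at 2 h, and 8 h and 1 h differed by -0.97 ± 0.26 (adjusted p = 0.0574).

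The genes with the smallest p in the other lists did not pass. HOM3, the aspartate kinase at the head of the homoserine branch, was at -0.83 ± 0.26 at 2 h. ADE3, a folate enzyme, was at -0.89 ± 0.27 at 1 h, and SHM2, the cytosolic serine hydroxymethyltransferase, was at -0.68 ± 0.25 at 2 h. GSH1, which starts glutathione synthesis, was at -0.60 ± 0.25 at 2 h, and SAH1, which hydrolyses S-adenosylhomocysteine, was at -0.61 ± 0.31 at 2 h. ADI1, an enzyme of methionine salvage, was at -0.60 ± 0.27 at 2 h. MDE1, of the same list as ADI1, had changes of 0.48, 0.09, 0.44 and 0.50 at 1, 2, 4 and 8 h. YCT1, a cysteine transporter, was at -0.83 ± 0.31 at 2 h. JLP1, of the same list as YCT1, went the other way, with changes of 1.28, 1.66, 0.57 and 1.39 at 1, 2, 4 and 8 h. JLP1 was dim, with levels of 0.206 and 0.1 at 0 h, the latter at the floor, so the size of its changes is uncertain. HRT1 and CDC53, which encode subunits of the ubiquitin ligase that contains Met30, were at 0.91 ± 0.28 and 0.66 ± 0.25 at 1 h. Their later changes were -0.08 and 0.09 at 2 h, 0.57 and 0.21 at 4 h, and 0.16 and -0.13 at 8 h. MXR1, a methionine sulfoxide reductase, was at 0.87 ± 0.27 at 1 h and at -0.08, 0.39 and -0.12 at 2, 4 and 8 h. Its 8 h and 1 h means differed by -0.98 ± 0.27 (limma, adjusted p = 0.0629). MXR2, of the same list, had changes of 0.39, 0.16, 0.51 and 0.61 at 1, 2, 4 and 8 h. Between 8 h and 1 h the smallest adjusted p beside SOA1 were those of CDC34, at -1.12 ± 0.30 (0.0582), and CBF1, which encodes the DNA-binding partner of Met4, at -1.97 ± 0.53 (0.0584). CBF1 was dim, with levels of 0.131 and 0.213 at 8 h, near the floor of 0.1, against 0.450 and 0.949 at 1 h, so the size of its difference is uncertain.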

How the data were processed

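The deposited values were array intensities from GCOS, per the submitters' processing notes, with its version not given in the sources used here. The authors' description of a ratio to the 0 h median applies to another table, which was not used here. Each intensity was divided by the median of its array (control probe sets left out), raised to 0.1 where lower, and put on a log2 scale. Each gene took its brightest single-gene probe set, and genes with a mean below 0.2 of the array median were left out. Group means were fitted on all 10 arrays with limma 3.58.1 in R 4.3.3 (eBayes with an intensity trend, two-sided, Benjamini-Hochberg over 5365 genes), after a test on simulated data. Residual and prior degrees of freedom summed to 14.4. P-values cover the spread between 2 arrays a time. No batch was given.

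The 32 genes, the lists and the tests were chosen with earlier results of these data known. Per-array values are given for genes that passed, for the 2 with the smallest p in each comparison and for 16 genes set by name, and for CYS4, MHT1, MET13 and SAM4 in part, which were added after their values were seen. Outside the gene set, each list gives the 2 genes with the smallest p in a comparison, in part. No promoter or protein sequence was analysed here. Alternatives covered scaling, floor, filter, probe set, variance model, samples in the fit, replicate block and arrays left out.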

Additional observations from a re-analysis of the deposited data

Results flagged for a closer look

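MUP1, the high-affinity methionine permease gene, stood out because both of its 1 h arrays lay above both 0 h arrays while both of its 2 h arrays, and both of its 8 h arrays, lay below them. The 1 h and 2 h means differed by 0.98 log2 units, a difference that was not tested. The 1 h and 8 h means differed by 0.86 log2 units, which did not pass in limma (8 h minus 1 h -0.86 ± 0.29, adjusted p = 0.116), and the adjusted p ran from 0.0628 to 1 over the 20 alternative fits.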

How the results depend on the processing

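The median change of the 32 sulfur genes was below that of all genes at 1, 2, 4 and 8 h and averaged over the dried times in every alternative fit, and above it for 8 h against 1 h. With 75th percentile scaling, which put the median of all genes at -0.11 at 1 h, the sulfur median was -0.44 at 1 h and 0.21 for 8 h against 1 h. With quantile normalization these were -0.42 and 0.18. With no scaling it was -1.12 at 2 h, 0.012 at 4 h, -0.44 at 8 h, -0.46 averaged over the dried times and -0.27 for 8 h against 1 h, where all genes had -0.67, 0.27, -0.29, -0.17 and -0.38. The count of sulfur genes called at 2 h was 0, in place of 1, with 75th percentile scaling, no scaling, a floor of 0.5, no filter on low values, no variance trend, only the compared groups in the fit, and with both dimmest arrays left out. At 4 h it was 0 with no scaling and with the floor of 0.5, and 2 with only the compared groups and with both dimmest arrays left out, where SAM2 joined MUP3. At 8 h it was 1 with quantile normalization, the replicate block and with both dimmest arrays left out. At 1 h it was 2 with only the compared groups, MUP3 lower (adjusted p = 0.0399) and MET4 higher (0.0311). Averaged over the dried times it was 0 with no scaling. By the F test it was 0 with no scaling, the floor of 0.5 and no variance trend. The causes were not tested.

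Leaving out 1 array at a time, the count ran over 0 to 0 at 1 h, 0 to 1 at 2 h, 0 to 2 at 4 h, 0 to 1 at 8 h, 0 to 1 averaged over the dried times, 0 to 0 for 8 h against 1 h and 0 to 1 by the F test. The median ran over -0.35 to -0.28, -0.54 to -0.41, -0.39 to -0.16 and -0.24 to -0.11 at 1, 2, 4 and 8 h, -0.35 to -0.26 averaged over the dried times and -0.077 to 0.098 for 8 h against 1 h, where it was negative without replicate 2 at 1 h. MUP3 passed in 6 of 20 alternative fits at 2 h, 15 of 20 at 4 h, 5 of 20 at 8 h and 16 of 19 averaged over the dried times. Same-numbered arrays deviated with correlations between -0.06 and 0.17 and were not taken as pairs. With the replicate block MUP3 was at -1.13 at 8 h (adjusted p = 0.0435).

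Of all genes, 140, 81, 78 and 51 were called at 1, 2, 4 and 8 h, 113 averaged over the dried times and 185 for 8 h against 1 h. With no scaling these counts were 0 or 1, with the floor of 0.5 they were 42, 17, 6, 6, 48 and 52, and with no variance trend 36, 38, 27, 15, 60 and 61. Counts were over 1.5 times the first at 2, 4 and 8 h with quantile normalization (163, 140 and 97), at 2 and 8 h with the replicate block (124 and 96), at 1 and 4 h with only the compared groups (530 and 159) and in 5 comparisons with both dimmest arrays left out (344, 252, 232, 81 and 229). With no filter they were 49 at 4 h, 27 at 8 h and 110 for 8 h against 1 h, and with only the compared groups 120 for the last. Quantile normalization gave 105 higher and 58 lower calls at 2 h, in place of 44 and 37. With 75th percentile scaling there were 90 higher and 30 lower at 1 h, in place of 119 and 21, and 78 higher and 93 lower for 8 h against 1 h, in place of 55 and 130. Leaving out 1 array gave 18 (without replicate 1 at 1 h) to 175 at 1 h, 17 to 193 at 2 h, 26 to 130 at 4 h, 14 to 186 at 8 h and 27 to 191 averaged over the dried times, lowest without replicate 1 at 0 h from 2 h on, and 17 (without replicate 2 at 1 h) to 474 for 8 h against 1 h.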
